A study of Mus musculus with 8 samples.

Results

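Prg4, Cilp, Cilp2, Clu, Creb5 and Erg are 6 genes that mark, or help to form, the surface zone of articular cartilage. They were taken by name out of the 50462 genes of a mouse knee cartilage RNA-seq table. The rule used no measured value, but the genes and the lists below were chosen with earlier results of these data known. All 6 were detected in every library and tested. The samples were cartilage caps micro-dissected from the medial knee of wild-type male C57Bl/6J mice, with 1 library per mouse. Naive mice (n = 4) were unoperated and taken at day 0, at 11 weeks of age, and DMM mice (n = 4) were taken at day 42 after surgery, at 17 weeks of age. DMM stands for destabilisation of the medial meniscus, a surgical model of post-traumatic osteoarthritis made by cutting the medial meniscotibial ligament of the left knee. Sham-operated mice were not among the samples used here, so the surgery and the 6 weeks of age between the groups cannot be told apart in any comparison.

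Articular cartilage is layered. Flattened chondrocytes at the joint surface secrete the boundary lubricant lubricin, encoded by Prg4, and rounder cells below them make most of the collagen II and aggrecan matrix. Deeper still, hypertrophic chondrocytes lie in calcified cartilage next to bone. In osteoarthritis the surface is typically the first layer to fray, and loss of lubricin in mice or humans leads to early joint failure.

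None of the 6 genes changed between naive and DMM cartilage by the thresholds of the study. A gene was called when its adjusted p reached 0.05 and its change reached 1.5-fold, and 7.75% of the 17760 genes tested by DESeq2 were called higher and 5.92% lower in DMM. The count of members called was 0 of 6 with DESeq2, with the edgeR quasi-likelihood test and with limma-voom. At an unadjusted p under 0.05 the count was also 0 of 6 with each tool, where 33% of all genes passed with each. Naive and DMM values overlapped for all 6 members, and they did not overlap for 22.2% of all genes tested. With only 6 genes, counts of 0 beside such shares do not set the members apart from all genes. The median log2-fold change of the 6 was -0.09, with 2 above and 4 below 0, and that of all genes tested was -0.02. In bulk RNA, fewer cells of a type and less RNA per cell cannot be told apart, so each value below describes the whole cap.

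**Figure D1:**
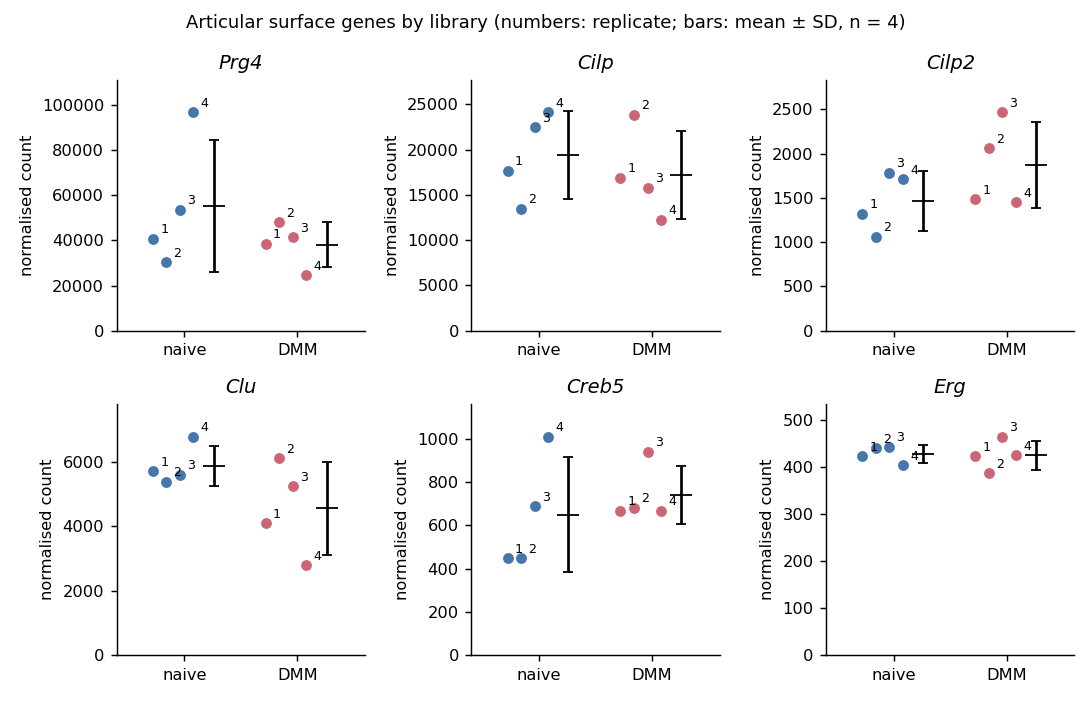
Normalised counts (y axis, from 0) of the 6 genes in each of the 4 naive and 4 DMM libraries, numbered by replicate, with the mean and SD of each group as bars. The groups overlap in every panel, Prg4 spreads most within the naive group and Erg least.

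The matrix genes came first by level. Prg4 (chr1:150449412-150466165, minus strand, GRCm38) encodes lubricin, the large mucin-like proteoglycan that coats the joint surface. Its normalised counts were 40806, 30378, 53596 and 96845 in naive replicates 1 to 4. They were 38508, 48057, 41559 and 24672 in DMM replicates 1 to 4. Naive replicate 4 stood 3.19-fold above naive replicate 2, and the 4 DMM libraries all lay between the lowest and highest naive values except DMM replicate 4, which was the lowest of all 8. The naive mean was 55406 ± 29212 (SD, n = 4) and the DMM mean 38199 ± 9858 (SD, n = 4), a log2-fold change of -0.54 (SE 0.42, 95% interval -1.37 to 0.29, DESeq2, adjusted p = 0.407). Without naive replicate 4 the log2-fold change was -0.12, so this 1 library set most of its size. The interval includes decreases of more than 1.5-fold (0.585 on the log2 scale), so a fall of that size was not excluded. Prg4 shares 4.96% of its 31-base words with other genes, Tpr sharing more than any other, and 1 gene overlaps it on the other strand. Whether reads were counted by strand was not stated.

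Cilp (chr9:65265180-65280605, plus strand) encodes cartilage intermediate layer protein, a secreted matrix protein known to bind TGF-beta and to dampen IGF1 signalling. Its normalised counts in naive replicates 1 to 4 were 17670, 13459, 22517 and 24117. In DMM replicates 1 to 4 they were 16880, 23883, 15794 and 12272. The lowest and highest libraries of the 2 groups nearly coincided, with a log2-fold change of -0.18 (SE 0.22, 95% interval -0.60 to 0.25, DESeq2, adjusted p = 0.634). Cilp2 (chr8:69880369-69887687, minus strand), its homologue, went the other way in size. Cilp2 had 1321, 1060, 1784 and 1711 normalised counts in naive and 1487, 2064, 2466 and 1454 in DMM replicates 1 to 4. The 2 highest Cilp2 values were DMM replicates 3 and 2 and the 2 lowest were naive replicates 2 and 1, and the log2-fold change was 0.35 (SE 0.21, 95% interval -0.06 to 0.76, DESeq2, adjusted p = 0.244). Neither gene shares a 31-base word with another gene.

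The starts of these homologues are shown because their ratio, described further on, did not overlap between the groups. That is not particular to this pair, which was compared after its values were seen. Of the ratios between all pairs of genes averaging 100 or more normalised counts, 31.3% did not overlap either. Each sequence is a RefSeq promoter of GRCm38.p6, 5′ to 3′, from 250 bases before to 50 bases after the annotated start.
Cilp promoter, chr9:65264930-65265229, plus strand: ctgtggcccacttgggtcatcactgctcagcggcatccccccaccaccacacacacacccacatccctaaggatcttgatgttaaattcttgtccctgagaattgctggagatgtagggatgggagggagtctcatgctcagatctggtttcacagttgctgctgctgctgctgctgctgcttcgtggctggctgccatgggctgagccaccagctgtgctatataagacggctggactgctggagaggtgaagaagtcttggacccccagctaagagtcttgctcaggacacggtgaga
Cilp2 promoter, chr8:69887343-69887642, minus strand: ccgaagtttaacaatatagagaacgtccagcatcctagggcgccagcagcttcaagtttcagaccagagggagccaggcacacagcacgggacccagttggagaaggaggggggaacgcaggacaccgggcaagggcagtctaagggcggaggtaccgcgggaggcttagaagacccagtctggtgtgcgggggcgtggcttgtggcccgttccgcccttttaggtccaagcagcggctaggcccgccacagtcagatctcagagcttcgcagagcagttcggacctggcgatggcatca
The Cilp window has 4 CpG dinucleotides and 55.7% GC and the Cilp2 window 18 and 61.3%, beside a median GC of 52.7% over all 32851 promoters. Neither window holds any of the 4 motifs searched on both strands, which were TGACGTCA (the cAMP response element, CRE, in 1.79% of all promoters), TGANTCA (AP-1, 7.81%), ACCGGAAGT (ETS, 1.1%) and GTAAACA (forkhead, 3.65%). Their absence from a window says nothing of the factors themselves.

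Clu (chr14:65968483-65981547, plus strand) encodes clusterin, a secreted chaperone made by superficial chondrocytes and by several other cell types. Naive replicates 1 to 4 had 5710, 5392, 5612 and 6790 normalised counts, within 1.26-fold of each other. DMM replicates 1 to 4 had 4091, 6118, 5249 and 2787, which spread over 2.2-fold. DMM replicates 1, 3 and 4 fell below every naive library and DMM replicate 2 did not. The log2-fold change was -0.37 (SE 0.21, 95% interval -0.77 to 0.04, DESeq2, adjusted p = 0.204), and without DMM replicate 2 it was -0.54 (adjusted p = 0.0375), still short of the 1.5-fold threshold. Of the 6 genes, Clu was the only one whose adjusted p went under 0.05 when a library was left out, and it was not called in any of the 8 such fits.

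The transcription factors came next. Creb5 (chr6:53287270-53700376, plus strand) encodes a CREB/ATF family factor known to drive Prg4 expression in superficial chondrocytes. Its normalised counts were 448, 448, 688 and 1010 in naive replicates 1 to 4. They were 668, 682, 942 and 668 in DMM replicates 1 to 4. Naive replicates 1 and 2 were the lowest of the 8 libraries and naive replicate 4 the highest, so the DMM values lay inside the naive range. The log2-fold change was 0.19 (SE 0.25, 95% interval -0.29 to 0.67, DESeq2, adjusted p = 0.654), and without naive replicate 4 it was 0.49 (adjusted p = 0.0542). The Creb5 locus holds 15 annotated transcripts and 2 further genes on the same strand, and its annotated exons add up to 25021 bases.

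Creb5 is among the 4 members matched in the RefSeq promoter table (Cilp, Cilp2, Creb5 and Erg, with 7 starts in all), and its 2 starts are shown because each holds a site of the kind CREB/ATF or AP-1 proteins are known to bind. Capitals mark the motif, and positions are counted back from the base before the start, which is -1.
Creb5 first start, chr6:53287053-53287352, plus strand: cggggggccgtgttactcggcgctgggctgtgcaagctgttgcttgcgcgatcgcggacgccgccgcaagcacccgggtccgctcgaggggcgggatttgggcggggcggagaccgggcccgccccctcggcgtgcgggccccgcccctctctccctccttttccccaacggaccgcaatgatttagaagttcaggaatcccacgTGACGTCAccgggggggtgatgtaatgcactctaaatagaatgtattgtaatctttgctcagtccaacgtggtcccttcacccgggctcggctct
Creb5 second start, chr6:53573124-53573423, plus strand: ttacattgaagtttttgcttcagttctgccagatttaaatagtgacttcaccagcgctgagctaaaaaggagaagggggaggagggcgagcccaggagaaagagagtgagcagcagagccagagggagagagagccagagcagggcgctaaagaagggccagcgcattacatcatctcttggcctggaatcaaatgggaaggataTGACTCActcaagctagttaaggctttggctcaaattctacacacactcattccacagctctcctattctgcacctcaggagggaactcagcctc
The first start holds the palindromic CRE at -45 to -38, in a window with 31 CpG dinucleotides and 64.7% GC. The second holds an AP-1 match at -45 to -39, in a window with 4 CpG dinucleotides and 50% GC. A match is a description of letters and not a shown binding site. The windows of the 3 Erg starts in the table hold none of the 4 motifs.

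Erg (chr16:95359169-95586593, minus strand) encodes an ETS factor of articular chondrocytes that is also a defining factor of endothelial cells. Naive replicates 1 to 4 had 423, 440, 443 and 404 normalised counts. DMM replicates 1 to 4 had 423, 387, 464 and 425. The groups lay on top of each other, with a log2-fold change of -0.01 (SE 0.11, 95% interval -0.22 to 0.21, DESeq2, adjusted p = 0.977). Erg was the only member whose 95% interval lay within 1.5-fold either way. Its coefficient of variation within the naive group was 4.27%, against 52.7% for Prg4. Beside it, 6 of 12 endothelial markers were called higher and 1 (Vwf) lower, where 7.75% and 5.92% of all genes were. Their median log2-fold change was 0.59, and their summed normalised count was 7267 to 8035 in naive and 7726 to 8783 in DMM libraries. None of those called higher was called in all 8 fits that left out 1 library, from 7 (Cdh5 and Egfl7) to 4 (Emcn and Cldn5). With cartilage matrix scaling 0 were called higher and 2 lower, where 0.534% and 39.4% of all genes were. The part of endothelial RNA in the Erg level was not tested.

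Per unit of exon length, the order of the levels was Prg4, Cilp, Clu, Cilp2, Erg and Creb5 in both groups. On this scale, in which every library has the same sum over all genes with a length, Prg4 was at 2603 ± 1601 (SD, n = 4) in naive and 1933 ± 483 in DMM, ranks 32 and 42 of all genes. The Cilp level was 904 ± 305 and 878 ± 248, that of Clu was 334 ± 65.5 and 287 ± 87.1, and that of Cilp2 was 67.2 ± 21.4 and 93.4 ± 21.4. For Erg it was 23.9 ± 2.06 and 26.6 ± 1.61, and for Creb5 5.18 ± 2.6 and 6.39 ± 0.947. These are levels with no test, and the libraries of neighbours in the order did not overlap within either group. In naive the nearest pair was Prg4, from 1225 upward, and Cilp, at 546 to 1217. The order of Cilp and Clu, and of Erg and Creb5, turned when the median length of coding transcripts was used, with Clu at 1389 above Cilp at 926 and Creb5 at 48.9 above Erg at 40.0 in naive.

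The 6 genes took between 0.305% of all counts in naive replicate 2 and 0.909% in naive replicate 4, most of it from Prg4. Single libraries stood at the ends of several members together. Naive replicate 2 was the lowest of its group for 4 of 6 genes, naive replicate 4 the highest for 4, and DMM replicate 4 the lowest of its group for 5. DMM replicates 2 and 3 were each the highest for 3.

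Several genes of the cartilage matrix at large rose in DMM. A list of 20 cartilage matrix genes and their factors, such as Acan and Col2a1, had 19 genes tested. Of these, 9 were called higher and none lower, with a median log2-fold change of 0.77, beside 7.75% and 5.92% of all genes. Fmod (2.08, adjusted p = 5.3e-21), Comp (1.35, adjusted p = 6.4e-09) and Acan (1.09, adjusted p = 7.75e-09) had the smallest adjusted p by DESeq2. The rise did not cover the whole list, since 10 of the 19 were not called. Among them Sox6, named after its value was seen, was lower at -0.57 (DESeq2, adjusted p = 0.00557), short of 1.5-fold. The 12 chondrocyte markers are all part of that list, so they are no separate evidence. All 12 were detected, 5 were called higher, and they summed to 34101 to 73386 normalised counts in naive and 85988 to 150944 in DMM libraries. Markers of other tissues moved with the list, with 7 of 8 tendon, ligament and meniscus genes (median 1.23) and 9 of 10 osteoblast and osteocyte genes (1.06) called higher and 10 of 11 neutrophil (-0.84) and 8 of 9 erythroid genes (-0.97) called lower, and their part in it was not tested.

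Within each library, the ratio of a surface gene to the mean log2 level of the cartilage matrix list does not depend on scaling between libraries. The log2 ratio of Clu was lower in DMM by 1.02 on average, at 3.08, 1.93, 2.37 and 2.77 in naive and 1.81, 2.20, 1.46 and 0.603 in DMM replicates 1 to 4 (exact permutation test, two-sided p = 0.0571). Prg4 was at 5.92, 4.43, 5.63 and 6.61 in naive and 5.05, 5.17, 4.45 and 3.75 in DMM, a difference of -1.04 (exact permutation test, p = 0.143). The differences for the other members were -0.78 for Cilp (p = 0.171), -0.26 for Cilp2 (p = 0.486), -0.34 for Creb5 (p = 0.371) and -0.61 for Erg (p = 0.0571) by the same exact permutation test. All 6 differences were below 0, as were those of 91.2% of 11039 genes averaging 100 or more normalised counts, whose median difference was -0.65, so the shared sign is not a result about the surface genes. The groups overlapped for all 6, and the smallest p that 4 against 4 libraries can give is 0.0286. Leaving out 1 library moved Cilp2 to -0.57 (without naive replicate 2) or -0.06 (without DMM replicate 4), and Creb5 to -0.65 (without naive replicate 2) or -0.09 (without naive replicate 4). Naive replicate 2 held the highest matrix level of its group, 10.5 on the log2 scale, and the lowest ratio for each of the 6 members in that group.

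Scaling the libraries by the cartilage matrix genes in place of all genes shifted the median of all genes tested to -0.69. Under that scaling 3 of 6 members were called lower, Prg4 at -1.17 (DESeq2, adjusted p = 0.0113), Clu at -1.01 (adjusted p = 0.0115) and Erg at -0.69 (adjusted p = 0.0358), beside 39.4% of all genes called lower and 0.534% called higher. Cilp (-0.81, adjusted p = 0.0519), Cilp2 (-0.34, adjusted p = 0.356) and Creb5 (-0.48, adjusted p = 0.2) were not called. Relative to the shift of all genes, Erg lay at the median, Prg4, Clu and Cilp below it, and Cilp2 and Creb5 above it, which is the order found with the usual scaling.

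**Figure D2:**
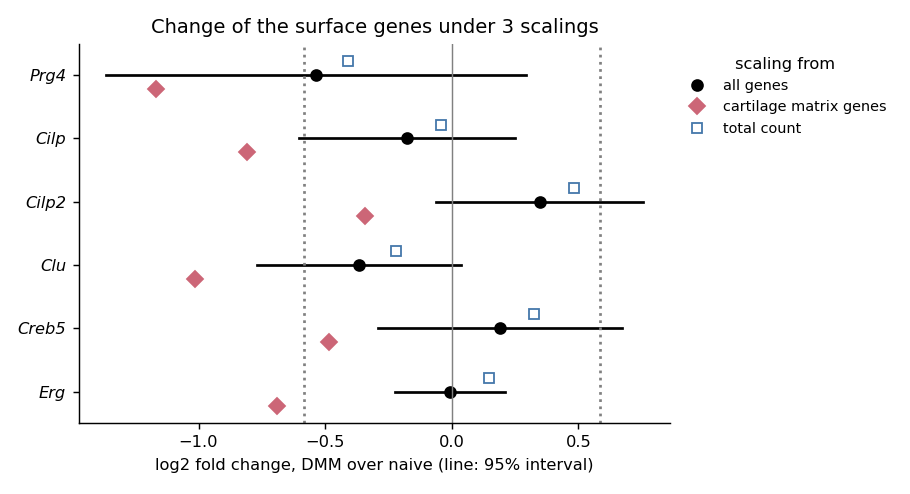
Log2-fold change of DMM over naive (x axis) for the 6 genes with scaling from all genes (black, 95% interval as a line), from the cartilage matrix genes (diamonds) and from total counts (squares), with dotted lines at 1.5-fold. All black lines cross 0, and the diamonds lie to the left of the black points for every gene.

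The members were also set against each other within libraries, a comparison chosen after their values were seen. Of 15 ratios between members, 3 did not overlap between the groups, beside 31.3% of the ratios between all pairs of genes averaging 100 or more normalised counts, and all 3 involved Cilp2. The log2 ratio of Cilp to Cilp2 was 3.741, 3.665, 3.657 and 3.816 in naive and 3.504, 3.532, 2.678 and 3.076 in DMM replicates 1 to 4. Naive libraries lay within a narrow band and every DMM library lay below it, most of all replicate 3, with a mean difference of -0.52 (exact permutation test, two-sided p = 0.0286, adjusted over 15 ratios 0.143). In counts, Cilp2 made 7.59 ± 0.388 (SD, n = 4) per 100 Cilp counts in naive and 11.2 ± 3.28 in DMM. Without DMM replicate 3 the difference was -0.35 on the log2 scale. The ratio of Prg4 to Cilp2 differed by -0.78 and that of Cilp2 to Clu by 0.76 (each exact permutation p = 0.0286, adjusted 0.143). The log2 ratio of Prg4 to Clu was close in both groups, at 3.11 ± 0.577 in naive and 3.09 ± 0.127 in DMM (exact permutation p = 0.971). A share of 3 in 15 is below the background of all gene pairs.

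**Figure D3:**
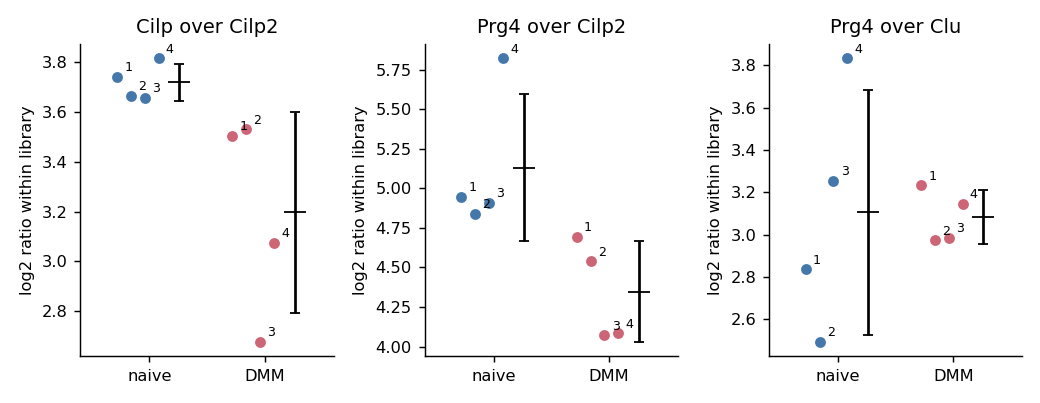
Log2 ratio of normalised counts within each library (y axis, not from 0) for Cilp over Cilp2, Prg4 over Cilp2 and Prg4 over Clu, with points numbered by replicate and bars for the mean and SD of 4 libraries. The first 2 panels show no overlap of naive and DMM points and the third shows naive points on both sides of the DMM points.

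Some other genes of the articular surface rose. Of 16 tested, among them Thbs4 and Cd44, 5 were called higher and none lower, with a median log2-fold change of 0.43, against 7.75% called higher over all genes. They were Ptgis, which makes prostacyclin (0.64, adjusted p = 1.2e-06), Dkk3, a secreted Wnt modulator (1.79, adjusted p = 1.89e-09), Abi3bp, a matrix protein (1.44, adjusted p = 0.001), Gdf5, the joint-forming growth factor (1.77, adjusted p = 0.00622), and Dpt, a collagen-binding protein (1.81, adjusted p = 0.0381), by DESeq2. Gdf5 and Dpt were named after their values were seen. Gdf5 had 6.35 ± 2.44 normalised counts in naive and 21.3 ± 8.26 in DMM. Dkk3 and Abi3bp were called in all 8 fits that left out 1 library, Ptgis in 7 (not without naive replicate 1, 0.58), and Gdf5 and Dpt in 3 each. In the other 5 fits the log2-fold change of Gdf5 was 1.46 to 1.86 with no adjusted p, since its counts fell under the filter of DESeq2, and that of Dpt was 1.38 to 1.75. The count of the list was 3 without naive replicate 1, 2 or 3 or DMM replicate 1 or 3. Tendon, ligament and meniscus markers moved with this list, with 7 of 8 tested called higher, a median of 1.23 and a summed normalised count of 191604 to 328603 in naive and 454588 to 631289 in DMM. Col1a1, also a bone gene, and Col1a2 made up most of that sum, while the tendon genes Tnmd, Scx and Kera had means of 10.1, 34.1 and 7.55 in naive and 68.6, 84.2 and 50.8 in DMM. Their part in the change of the surface list was not tested.

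Genes of the deep and calcified zone mark the other end of the tissue. Of 16 tested, 10 were called higher and none lower, with a median log2-fold change of 0.84, beside 7.75% and 5.92% of all genes. With cartilage matrix scaling 2 were called higher and 1 lower, where 0.534% of all genes were called higher and 39.4% lower. The PTHrP receptor Pth1r (1.19, adjusted p = 1.25e-19), alkaline phosphatase Alpl (1.33, adjusted p = 1.98e-11) and the osteogenic factor Sp7 (1.01, adjusted p = 6.1e-10) had the smallest adjusted p by DESeq2. Sp7, Alpl and Ibsp are also bone genes and stand in the list of osteoblast and osteocyte markers too, so the lists are not separate evidence. Of those markers 9 of 10 were called higher (median 1.06, summed 129842 to 220658 in naive and 345211 to 428056 in DMM). The part of bone RNA in this list was not tested.

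**Figure D4:**
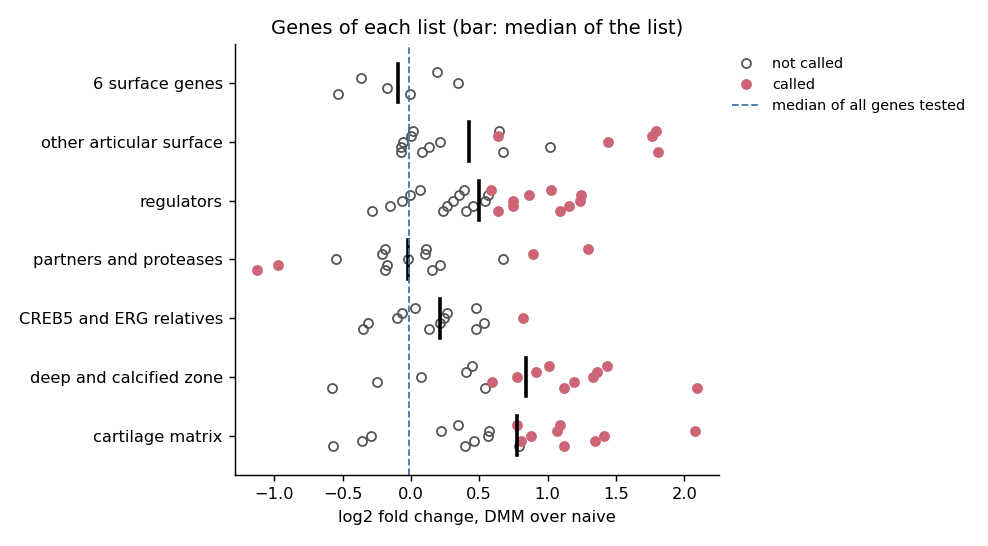
Log2-fold change of DMM over naive (x axis) of each gene tested in the 6 surface genes and the other lists (rows), with called genes filled, the median of each list as a bar and the median of all genes as a dashed line. The 6 surface genes straddle 0 with none filled, while the medians of the deep and calcified zone and cartilage matrix lists lie at 0.84 and 0.77.

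Genes that are known to act upstream of Prg4 and the surface zone included 10 that rose. The list holds TGF-beta ligands, receptors and SMADs, FOXO factors, EGFR and its ligand, YAP and TAZ, NFAT factors, CREB1 and others. Of 24 tested, 10 were called higher and none lower, with a median log2-fold change of 0.50, beside 7.75% and 5.92% of all genes. Bone (9 of 10), tendon (7 of 8) and endothelial markers (6 of 12) were also called higher, and their part in the list was not tested. Yap1, the mechanosensitive coactivator, rose from 343 ± 60.4 to 625 ± 64.6 normalised counts (0.86, adjusted p = 8.67e-07), and Tgfb3 from 328 ± 98.3 to 697 ± 164 (1.09, adjusted p = 5.65e-05, both DESeq2). Both were called in all 8 fits that left out 1 library. Smad3, the receptor-activated SMAD of TGF-beta signalling, stood at 1.5-fold (0.59, DESeq2 adjusted p = 2.14e-05). It was not called without naive replicate 1 or 2 or DMM replicate 3 or 4, at 0.52 to 0.57. The count of the list was 5 or 6 without naive replicate 1, DMM replicate 1 or DMM replicate 3. With cartilage matrix scaling none of the list was called higher and 3 were called lower, where 0.534% of all genes were called higher and 39.4% lower.

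Genes for proteins known to bind or cut the member proteins were followed next. Lubricin binds CD44 and Toll-like receptors and is cut by cathepsin G, elastase and other proteases, CILP binds IGF1, and clusterin binds lipoprotein receptors. Of 15 tested, 2 were called higher and 2 lower, beside 7.75% and 5.92% of all genes, with a median of -0.02 and Tpsab1 at 0 in all libraries. With cartilage matrix scaling the counts were 0 higher and 6 lower, where 0.534% of all genes were called higher and 39.4% lower. Igf1 rose from 663 ± 58.3 to 1625 ± 481 normalised counts (1.29, adjusted p = 1.49e-09) and Vldlr from 510 ± 56.8 to 948 ± 115 (0.89, adjusted p = 4.69e-09), while Ctsg fell by 1.12 on the log2 scale (adjusted p = 8.51e-06) and Elane by 0.97 (adjusted p = 0.000238, all DESeq2). Ctsg and Elane are neutrophil granule proteases. Elane is itself on the list of 11 neutrophil markers, of which 10 were called lower, with 0.902% to 1.26% of counts in naive and 0.425% to 0.895% in DMM libraries. The part of neutrophil RNA in the change of Ctsg was not tested.

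Among family relatives of the transcription factors, 1 of 13 CREB/ATF, AP-1 and ETS genes tested was called higher and none lower, with a median of 0.21. The share called higher is near the 7.75% of all genes. It was Jun, a known partner of CREB/ATF factors, from 400 ± 81.9 to 704 ± 114 normalised counts (0.82, DESeq2 adjusted p = 0.000103), called in all 8 fits that left out 1 library. Without naive replicate 3 or 4 the list's count was 2.

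Among 11039 genes averaging 100 or more normalised counts, the genes with profiles most like each member were found by the root mean square difference of log2 values, each centred on its own mean, over the 8 libraries. For Prg4 these were Tspan15 (0.246), Cilp (0.299) and Stk32b (0.305), where the median gene lay at 0.606. Tspan15 had 118, 124, 186 and 286 normalised counts in naive and 129, 132, 133 and 116 in DMM, so that naive replicate 4 was highest for both genes and DMM replicate 4 lowest. For Clu they were Dgat2 (0.167), Wdr92 (0.178) and Htra4 (0.198). For Cilp they were 4933423P22Rik, Med27 and Cyp1b1, for Cilp2 Pam, Plxdc2 and Pcca, for Creb5 Sox5 (0.133), Ntrk2 and Spon1, and for Erg Sft2d1, Ppm1a and Sec23ip. Clu was the 14th most like Prg4 and Cilp2 the 673rd.

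**Figure D5:**
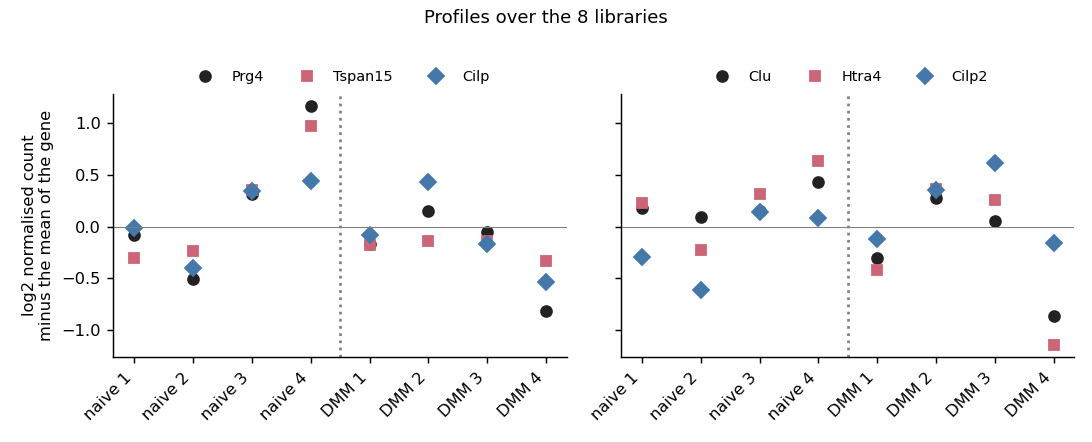
Log2 normalised count minus the gene's own mean (y axis) in each of the 8 libraries (x axis) for Prg4, Tspan15 and Cilp and for Clu, Htra4 and Cilp2. Prg4 and Tspan15 are both highest in naive replicate 4, Clu and Htra4 are both lowest in DMM replicate 4, and Cilp2 is highest in DMM replicate 3. Dgat2 and Wdr92, not shown, were nearer to Clu than Htra4.

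Tspan15 and Htra4 stand in the list of synovial lining and sublining markers, and the synovial lining is the other main source of lubricin in a joint. Of the 12 list genes, Tspan15 ranked 1st, Htra4 5th and Clic5 11th in likeness to Prg4. The rest ranked far from it, with Cd55 at 1448, Pi16 at 2700, Cd34 at 5339, Pdgfra at 8012, Dpp4 at 8655, Hbegf at 9762, Ly6a at 10491, Thy1 at 10621 and Pdpn at 10907. In likeness to Clu, Htra4 ranked 3rd, Pi16 1623rd and Tspan15 3241st, and the others from 5274th (Cd55) to 10925th (Pdpn). Over the whole list, 4 of 12 genes were called higher and none lower (median 0.26), beside 7.75% and 5.92% of all genes. The summed normalised count was 4091 to 5887 in naive and 4963 to 7095 in DMM libraries. In naive libraries the sum was highest in replicate 4, the library with the most Prg4, but in DMM it was highest in replicate 3, whereas Prg4 was highest in replicate 2. The part of lining cells in the Prg4 and Clu values was not tested.

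Totals ranged from 12479443 to 16548002 estimated counts per library. Of the blood and marrow markers, 8 of 9 erythroid (median -0.97), 7 of 9 megakaryocyte and platelet (-1.03) and 1 of 9 stem and progenitor genes (-0.34) were called lower in DMM, and 0 of 9 macrophage genes were called (-0.07). Their part in the scaling of the 6 genes was not tested.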

How the data were processed

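The 6 genes and all lists were chosen with earlier results of these data known. The deposited table holds estimated counts per gene, which the authors made with Trimmomatic, Kallisto and tximport on GRCm38. The labels name another build, and a different library kit from the methods. Values were rounded to whole numbers and tested in R 4.3.3 with DESeq2 1.42.0 (Wald test, median-of-ratios factors, Benjamini-Hochberg adjustment, unshrunken changes). Named genes were the 6, the called genes with the 3 smallest adjusted P of each list (up to 4 for binding partners and for relatives), and the 3 genes most like each member. Ratios used log2(normalised count + 1). Coordinates and exon lengths are from GENCODE vM21, and promoters from RefSeq. No columns were left unmapped. Marker lists covered synovial lining, tendon, endothelium, megakaryocytes, stem cells, neutrophils, erythroid cells, macrophages, bone and chondrocytes. Alternatives were edgeR 4.0.16, limma-voom (limma 3.58.1), TMM, total count and cartilage matrix factors, other filters and thresholds, a replicate block, a summed reference, leaving out each library and, added after seeing the data, another gene length. Tests were checked on simulated data with 200 genes changed 2-fold. DESeq2 called 122 of them (61%) and also 23 unchanged genes. The edgeR test and limma-voom each called 95 (47.5%) and 7 unchanged genes.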

Additional observations from a re-analysis of the deposited data

Results flagged for a closer look

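Of 58 sets of 4 libraries examined, 3 held 1 library far from the other 3, where chance at 1 in 20 gives 2.9. Creb5 in DMM replicate 3 stood at 941.8 normalised counts, apart from 667.9 to 681.5 in the other DMM libraries. The erythroid list summed to 172233.9 normalised counts in the same library, apart from 80212.5 to 85945.6 in the others. Naive replicate 2 had 16770 genes with 10 or more counts, apart from 18276 to 18467 in the other naive libraries, and held the lowest value of its group for 4 of the 6 surface genes.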

How the results depend on the processing

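No member was called under any alternative except cartilage matrix scaling, where the count of members called was 3. There Prg4 was at -1.17, Clu at -1.01 and Erg at -0.69 (called), and Cilp2 at -0.34 and Creb5 at -0.48 turned direction. Erg, near 0, also turned to 0.0098 (edgeR), 0.009 (limma-voom), 0.0198 (TMM), 0.145 (total count) and up to 0.0347 when a library was left out (from -0.052). Leaving out each library gave log2-fold changes of -0.74 to -0.12 for Prg4, -0.38 to -0.04 for Cilp, 0.18 to 0.45 for Cilp2, -0.54 to -0.19 for Clu and 0.05 to 0.49 for Creb5. With a summed matrix reference the differences of the log2 ratios were -1.52 for Clu and -1.11 for Erg (exact permutation p = 0.0286 each). They were -1.54 for Prg4 and -1.28 for Cilp (0.0571 each), and -0.76 for Cilp2 and -0.84 for Creb5 (0.114 each). A change of reference shifts the difference of every gene by the same amount. With the mean reference 91.2% of 11039 genes lay below 0, and this share was not computed with the summed one. With the mean reference, leaving out each library gave -1.45 to -0.72 for Prg4, -1.11 to -0.55 for Cilp, -0.57 to -0.06 for Cilp2, -1.25 to -0.72 for Clu, -0.65 to -0.09 for Creb5 and -0.76 to -0.43 for Erg.

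For the lists, cartilage matrix scaling gave 4 calls for the cartilage matrix (3 higher, 1 lower), 2 for other surface genes (1 and 1), 3 for the deep zone (2 and 1), 3 for regulators (0 and 3), 5 for family relatives (0 and 5) and 6 for binding partners (0 and 6). A test against a 1.5-fold null gave 2, 1, 2, 0, 0 and 1 in that order, beside 94 of 19745 genes over all. Over all genes, cartilage matrix scaling called 0.534% higher and 39.4% lower. Without a fold threshold regulators had 16 and relatives 5, beside 4010 of 17760 genes over all. Relatives had 4 with total count factors, beside 2519 of 18422. Leaving out each library gave 3 to 7 for other surface genes, 5 to 11 for regulators and 1 to 2 for relatives. Total count factors moved the median of all genes to 0.14 and the calls to 2030 higher and 489 lower, from 1377 and 1052. The replicate block gave 3 calls for other surface genes and 2081 over all genes, with Prg4 at -0.42 and no member called. Naive and DMM libraries came from different mice, so no mouse was measured in both groups. Same-numbered libraries correlated at -0.143 to 0.123, and so few values cannot show whether the numbers pair them in another way. With coding transcript lengths the naive levels were 1388.5 for Clu, 48.9 for Creb5 and 40.0 for Erg. The cause was not tested. With 4 libraries a group, 95% intervals as wide as -1.37 to 0.29 (Prg4) limit what was detectable.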
